A study of Mus musculus with 18 samples.

Results

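The integrin and laminin genes of these hearts were taken by symbol. They are the protein-coding genes whose GENCODE M21 symbol starts with Itga or Itgb, or with Lama, Lamb or Lamc and a digit. The rule found 42 of the 34150 genes in the deposited tables. They were 18 integrin alpha chains, 9 integrin beta chains, 5 laminin alpha chains, 3 laminin beta chains and 3 laminin gamma chains. The rule also took in 4 genes for proteins that are not chains of either family: Itgb1bp1, Itgb1bp2, Itgb3bp and Itgbl1.

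The series holds 18 libraries of mouse heart RNA after ribosomal RNA depletion: 6 of control mice, 6 of mice with myocardial infarction (MI) and 6 of mice under HXP treatment, which the series title places in an acute infarction model. The sources used here do not give what HXP stands for, its dose, the times of infarction and collection, the part of the heart taken, strain, sex or age, nor what the controls underwent. Levels are in FPKM, fragments scaled for exon length and library size, so that levels of different genes can be set side by side per length. Differences are log2 fold changes of FPKM + 1 from 1 limma fit over the 3 groups, and a gene was said to rise or fall at a Benjamini-Hochberg adjusted p below 0.05 over all genes tested. Nothing says that the libraries of a group came from separate mice, so the p-values measure the spread between libraries.

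Integrins are paired alpha and beta chains in the cell membrane that hold cells to the matrix or to other cells. The alpha chain largely sets the ligand (collagens, laminins, proteins with an RGD motif, or counter-receptors on other cells), and the beta chain binds talin and kindlin, which link it to actin. Laminins are crosses of 1 alpha, 1 beta and 1 gamma chain in the basement membrane. In the heart, laminins with the alpha2 chain surround cardiomyocytes, those with alpha4 and alpha5 lie under the endothelium, and the alpha7 beta1 integrin is the main laminin receptor of muscle.

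The steps of the values gave back 75.8 to 81.1 M reads per library. The 8 cardiomyocyte markers were found in every library and summed to 8131 to 9800.0 FPKM in control (median 9098), 5522 to 9108 FPKM in MI (median 7182) and 5130 to 10827 FPKM in HXP (median 7452). In MI 2 of the 8 fell and 7 had a negative log2 fold change (limma), and their part in the values of the muscle chains such as Itga7 was not tested. Reads of mitochondrial genes with their nuclear copies made up 37.1% to 43.4% in the controls, 21% to 33.9% in MI libraries and 21.1% to 46.4% in HXP libraries. The other genes thus shared more of the total in every MI library than in any control. The median log2 fold change of all 13710 genes tested was 0.27 in MI against control, and median-ratio scaling moved it to 0.003. MI 5 held lung epithelial genes (Sftpc, surfactant protein C, at 970.3 FPKM against at most 0.216 elsewhere) and MI 4 skeletal muscle genes (Mylpf at 24.3 FPKM against at most 3.18 elsewhere). The library numbers in the headers form 3 blocks of nearby numbers, which held 2 control and 1 MI library, 1 control and 4 HXP libraries, and 3 control, 5 MI and 2 HXP libraries. What these numbers stand for is not stated, and the blocks are partly confounded with the groups.

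Most integrin and laminin chains were higher in MI than in control hearts. Of the 35 members that passed the filter of a mean of 0.5 FPKM, 23 rose and 1 (Itgb6) fell, 24 in all. Among all genes tested, 40.1% rose and 3.21% fell, 43.3% in all. The filter takes the mean over all 18 libraries, so a gene low in control can pass it through the other groups. Itga10, Itgb8, Itgax, Itgb4, Itga4, Itgb7 and Itgal had control means of 0.151 to 0.339 FPKM and were called higher in MI. For them, passing the filter and rising are not independent. The median log2 fold change of the 35 members was 0.65, against 0.27 over all genes tested. In 16 of the 35 members the lowest MI library lay above the highest control, as in 27.9% of all genes, and in 0 members did MI lie wholly below control, as in 1.39% of all genes. Median-ratio scaling left 16 members higher and 3 lower (17.5% and 15.1% of all genes), quantile normalization left 14 higher and 2 lower (13.2% and 17.3%), and scaling to non-mitochondrial reads left 18 higher and 1 lower (22.4% and 9.46%). Of the 24 members called, 14 were called in the same direction under each of 3 other scalings, and 14 were called without each of the 18 libraries in turn.

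The calls depend on MI 5. Without it 14 members rose and 0 fell, against 18.4% and 0.926% of all genes. Without both MI 4 and MI 5 the 3-group limma fit called 0 members and 0 genes in all. A fit of the control and MI libraries alone without the same pair of libraries, chosen after seeing the data, called 25 members higher and 1 lower (49.8% and 4.36% of all genes). Without MI 5 the median log2 fold change was 0.50 over the members and 0.24 over all genes. Within the block of 3 control, 5 MI and 2 HXP library numbers 2 members rose and 0 fell (0.540% and 0.0365% of all genes), with a median log2 fold change of 0.45 over the members and 0.21 over all genes. With the block of library numbers as a covariate 19 members passed as higher and 1 as lower (28.8% and 2.04% of all genes), and the median was 0.64 over the 35 members and 0.27 over all genes.

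**Figure D1:**
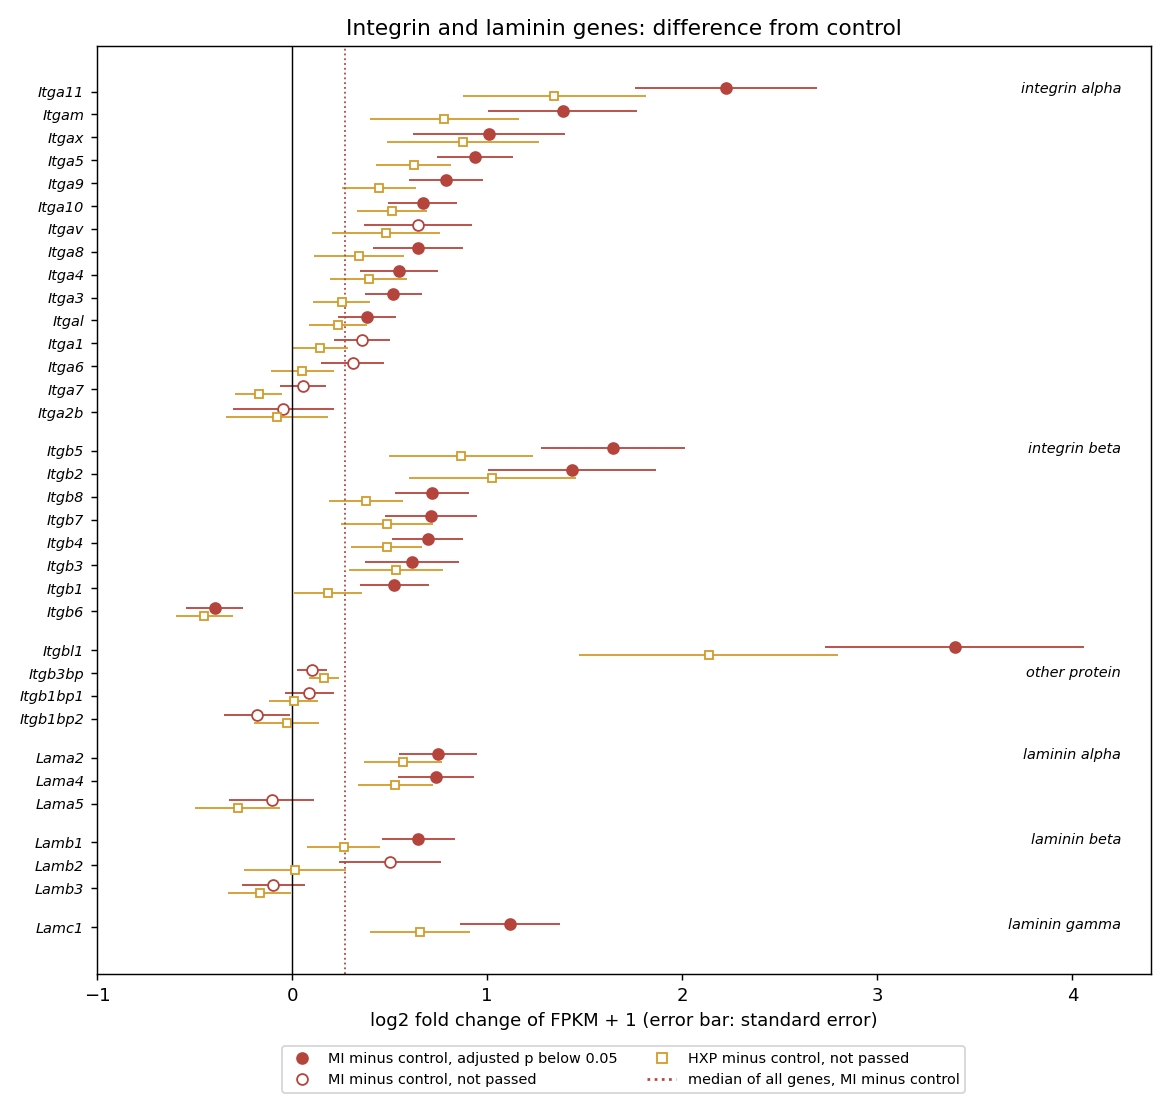
Fitted log2 fold change of FPKM + 1 (x axis, bars are the standard error) for 34 of the 35 tested integrin and laminin genes, grouped by chain class, in MI minus control (circles, filled at an adjusted p below 0.05) and HXP minus control (squares). Most circles lie to the right of the median of all genes at 0.27 (dotted line), and Itgbl1 and Itga11 lie farthest right.

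Among the integrin alpha chains 10 of 15 tested rose, 0 fell and 5 did not pass. The collagen receptor Itga11 had the highest log2 fold change of them. The collagen receptors Itga10 and Itga1 had lower ones than Itgam, Itgax, Itga5 and Itga9. Itga11 (ENSMUSG00000032243, GRCm38 chr9:62677826-62783982, plus strand) encodes alpha11, a receptor for fibrillar collagen that is made by fibroblasts. Its level was 0.215, 0.501 and 0.846 FPKM (lowest, median and highest of 6) in control, 1.74, 6.21 and 16.5 FPKM in MI, and 0.221, 2.18 and 11.5 FPKM in HXP. Every MI library lay above every control, with MI 5 highest and MI 6 lowest, and 5 of 6 HXP libraries lay above the controls. Itga11 rose by 2.22 on the log2 scale (SE 0.47, limma adjusted p = 0.0139). Itga10, a receptor for collagens better known from cartilage, rose by 0.67 (SE 0.18, limma adjusted p = 0.0150) from 0.151 ± 0.0555 to 0.852 ± 0.303 FPKM (SD, n = 6 each). Itga1, the collagen receptor of smooth muscle and many stromal cells, stood at 4.22 ± 0.818 FPKM in control and in MI at 5.69 ± 1.06 FPKM (SD, n = 6 each), and its 0.36 (SE 0.14) did not pass (limma adjusted p = 0.0527).

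Of the laminin receptors Itga3 and Itgb4 rose, and Itga6 and Itga7 did not pass. Itga7 (ENSMUSG00000025348, chr10:128933818-128958282, plus strand), the alpha chain of the muscle laminin receptor, had the highest mean level of the alpha chains. It stood at 15.2, 16.9 and 17.6 FPKM in control, 15.3, 17.6 and 20.4 FPKM in MI and 10.9, 15.6 and 19.5 FPKM in HXP (lowest, median and highest). The control and MI ranges overlapped over most of their length, and HXP 5 and HXP 6 lay below all controls. Its log2 fold change in MI was 0.06 (SE 0.12, limma adjusted p = 0.70), and -0.30 under median-ratio scaling (limma adjusted p = 0.0463), so that its direction depends on the scaling. Itga6, a laminin receptor of endothelial and epithelial cells, had 0.31 (SE 0.16, limma adjusted p = 0.117), which also turned under median-ratio scaling (-0.01) and under quantile normalization (-0.04). Itga3, a laminin receptor of epithelia, was at 1.63, 1.81 and 2.36 FPKM in control, 2.41, 2.95 and 4.18 FPKM in MI and 1.23, 2.43 and 3.52 FPKM in HXP. The MI and control libraries of Itga3 did not overlap, and it rose by 0.52 (SE 0.15, limma adjusted p = 0.0165). The mesothelial markers, genes of the epithelium-like covering of the heart, rose in 6 of 6 (median 1.59) and summed to 0.322 to 3.0 FPKM in control, 8.12 to 39.8 FPKM in MI and 0.463 to 104.4 FPKM in HXP. Each of these 6 had a control mean below the filter of 0.5 FPKM, so for them passing it and rising are not independent. Of the smooth muscle and pericyte markers 5 of 8 rose, with sums of 221.0 to 278.5 FPKM in control, 284.7 to 475.6 FPKM in MI and 187.6 to 497.2 FPKM in HXP. MI 5, which held lung epithelial genes, was the highest MI library for Itga3, Itgb4, Itga8 and Lama3 (4.18, 1.36, 4.02 and 0.843 FPKM). Without it Itga3 and Itgb4 passed (limma adjusted p = 0.0461 and 0.0420) and Itga8 did not (limma adjusted p = 0.0891). The part of the mesothelial, smooth muscle and lung genes in the levels of these 4 members was not tested.

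Of the receptors for RGD proteins, Itga5 (ENSMUSG00000000555, chr15:103344286-103366763, minus strand), the alpha chain of the fibronectin receptor, was at 7.72, 8.54 and 11.1 FPKM in control. It was at 14.1, 17.2 and 26.5 FPKM in MI and at 8.31, 14.6 and 24.7 FPKM in HXP. All MI libraries and 5 of 6 HXP libraries lay above the highest control. Itga5 rose by 0.94 (SE 0.19, limma adjusted p = 0.0139) in MI. Itga8, a receptor for nephronectin and other matrix proteins on contractile stromal cells, rose by 0.65 (SE 0.23, limma adjusted p = 0.0343), but did not pass without control 1, 2, 4, 5 or 6 or MI 1, 2 or 5 (limma adjusted p up to 0.0891). Itgav, the alpha chain shared by the beta3, beta5, beta6 and beta8 integrins, was higher than all controls in 5 MI libraries and below them in MI 3 (1.55 FPKM). Its 0.65 (SE 0.28) did not pass (limma adjusted p = 0.0663). Itga9, which binds tenascin C and osteopontin, rose by 0.79 from 8.06 ± 1.48 to 14.6 ± 2.49 FPKM (SD, n = 6 each; SE 0.19, limma adjusted p = 0.0143). Itga4, the partner of Itgb1 and Itgb7 on leukocytes, rose by 0.55 (SE 0.20, limma adjusted p = 0.0358), a call lost without control 1, 2, 3, 4 or 5 or MI 1, 2, 3 or 5 (limma adjusted p up to 0.0789).

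The 4 tested chains of the CD18 integrins and the Itgb7 chain of leukocytes rose in MI. Itgb2 (ENSMUSG00000000290, chr10:77530252-77565708, plus strand) encodes CD18, the beta chain of the leukocyte integrins. It was at 1.76, 2.0 and 2.36 FPKM in control, 2.92, 8.34 and 14.0 FPKM in MI and 1.43, 5.10 and 16.6 FPKM in HXP. Every MI library lay above every control, while HXP 4, 5 and 6 lay at 2.75 FPKM or less. Itgb2 rose by 1.44 (SE 0.43, limma adjusted p = 0.0194), with a limma adjusted p of 0.0520 without MI 5. Itgam (ENSMUSG00000030786, chr7:128062640-128118491, plus strand), the alpha chain CD11b of macrophages, monocytes and neutrophils, was at 0.447, 1.02 and 1.11 FPKM in control. Its levels were 0.696, 5.09 and 6.60 FPKM in MI and 0.608, 1.93 and 6.71 FPKM in HXP. MI 6 lay within the controls and the other 5 MI libraries above them, and Itgam rose by 1.39 (SE 0.38, limma adjusted p = 0.0159).

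Itgax, the alpha chain CD11c of dendritic cells and some macrophages, was at 0.0877, 0.160 and 0.358 FPKM in control, 0.229, 1.39 and 4.30 FPKM in MI and 0.0379, 1.16 and 4.91 FPKM in HXP. Of the MI libraries only MI 6 lay within the control range, and Itgax rose by 1.01 (SE 0.39, limma adjusted p = 0.0455). MI 5, which held lung epithelial genes, was highest (next MI 3 at 1.92 FPKM), and a part of lung tissue in this level was not tested. Itgal, the alpha chain CD11a of lymphocytes and other leukocytes, was at 0.176, 0.331 and 0.464 FPKM in control, 0.360, 0.821 and 1.11 FPKM in MI and 0.252, 0.456 and 1.29 FPKM in HXP. MI 4 and MI 6 lay within the control range of Itgal, which rose by 0.38 (SE 0.15, limma adjusted p = 0.0459). Both calls were lost without any 1 control or MI 1, 2, 3 or 5, and that of Itgal also without HXP 1 (limma adjusted p up to 0.117 for Itgax and 0.0980 for Itgal). Itgb7, the beta chain of gut-homing lymphocytes, rose by 0.71 (SE 0.24, limma adjusted p = 0.0269), a call lost without control 1 or MI 2, 3 or 5 (limma adjusted p up to 0.0645). Among 9 tested leukocyte markers 7 rose, and their sum over 10 genes ran from 97.1 to 139.4 FPKM in control, 146.9 to 784.9 FPKM in MI and 88.8 to 712.7 FPKM in HXP. Lyz2 made up most of this sum in every library, as 687.8 of 784.9 FPKM in MI 5, which held lung epithelial genes. Of the 7, Cd79a had a control mean below the filter, so for it passing the filter and rising are not independent. The neutrophil markers S100a8 and S100a9 did not rise (0.0007 and 0.21, limma adjusted p = 0.999 and 0.794). They were at 0 in 1 and 2 libraries. The part of the leukocyte markers in the leukocyte integrins was not tested, and in whole tissue more cells of a type and more RNA per cell cannot be told apart.

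Of the 8 integrin beta chains tested 7 rose and 1 fell. Itgb1 (ENSMUSG00000025809, chr8:128685654-128733200, plus strand), the shared beta chain of the collagen, laminin and fibronectin receptors, had the highest mean level of the beta chains. It was at 67.2, 81.9 and 94.5 FPKM in control, 86.5, 108.5 and 160.4 FPKM in MI and 70.3, 85.7 and 139.1 FPKM in HXP. MI 4 and MI 6 lay within the control range. Itgb1 rose by 0.52 (SE 0.18, limma adjusted p = 0.0273), a call lost without control 2, control 4, MI 2 or MI 5 (limma adjusted p up to 0.0713). It did not pass under any of the 3 other scalings (limma adjusted p 0.119 to 0.351).

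The partners of the alphav chain moved in both directions. Itgb5 (ENSMUSG00000022817, chr16:33829665-33949338, plus strand) encodes beta5, which binds vitronectin as the alphav beta5 integrin. It was at 26.0, 26.4 and 27.7 FPKM in control. It was at 43.0, 87.7 and 146.2 FPKM in MI and 18.6, 48.6 and 134.7 FPKM in HXP, where all MI libraries and all HXP libraries but HXP 6 lay above the controls. Itgb5 rose by 1.64 (SE 0.37, limma adjusted p = 0.0139). Itgb8, which activates latent TGF-beta with alphav, rose by 0.72 (SE 0.19, limma adjusted p = 0.0151) from 0.178 ± 0.0187 to 0.996 ± 0.521 FPKM (SD, n = 6 each). Itgb3, the alphav partner that platelets pair with Itga2b, rose by 0.62 (SE 0.24, limma adjusted p = 0.0472) and passed neither under the 3 other scalings (limma adjusted p 0.0725 to 0.210) nor without control 1, 3, 4, 5 or 6 or MI 1, 2, 3 or 5 (up to 0.117). Itgb4, the laminin receptor chain of hemidesmosomes, rose by 0.69 (SE 0.18, limma adjusted p = 0.0150) from 0.265 ± 0.0632 to 1.07 ± 0.320 FPKM (SD, n = 6 each).

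Itgb6 (ENSMUSG00000026971, chr2:60598292-60722643, minus strand) is known as the epithelial partner of alphav and as an activator of latent TGF-beta. It was at 1.95, 2.48 and 3.55 FPKM in control, 1.28, 1.61 and 2.42 FPKM in MI and 0.70, 1.71 and 2.24 FPKM in HXP. In 5 MI libraries and 4 HXP libraries it lay below all controls, and MI 6 lay within the control range. Itgb6 was the only member that fell, with -0.40 on the log2 scale (SE 0.15, limma adjusted p = 0.0395). The fall was -0.64 under median-ratio scaling (limma adjusted p = 0.0167), and it did not pass without control 3, 4, 5 or 6 or MI 1, 2, 3 or 5 (limma adjusted p up to 0.0861).

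Itgbl1 (ENSMUSG00000032925, chr14:123659971-123975618, plus strand) had the highest fold change of all members. It encodes a secreted protein with the cysteine-rich repeats of integrin beta chains and no membrane anchor. It was at 1.96, 2.61 and 3.37 FPKM in control, 7.68, 42.9 and 85.6 FPKM in MI and 1.44, 13.5 and 78.6 FPKM in HXP. All MI libraries and 5 of 6 HXP libraries lay above the controls, MI 6 and HXP 6 were lowest in their groups, and MI 5 and HXP 3 were highest. Itgbl1 rose by 3.40 (SE 0.66, limma adjusted p = 0.0136). The binding proteins did not pass. Itgb1bp2, which encodes the striated muscle protein melusin, had -0.18 (SE 0.17, limma adjusted p = 0.387) and stood at 63.5 ± 5.24 FPKM in control and in MI at 57.0 ± 12.1 FPKM (SD, n = 6 each). Itgb1bp1 (ICAP-1, which binds the beta1 tail) had 0.09 and Itgb3bp (a centromere protein) 0.10, and both turned negative under median-ratio scaling (-0.23 and -0.05). Itgb1bp1 then passed as lower (limma adjusted p = 0.0405), as it did under quantile normalization (-0.26, limma adjusted p = 0.0275).

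**Figure D2:**
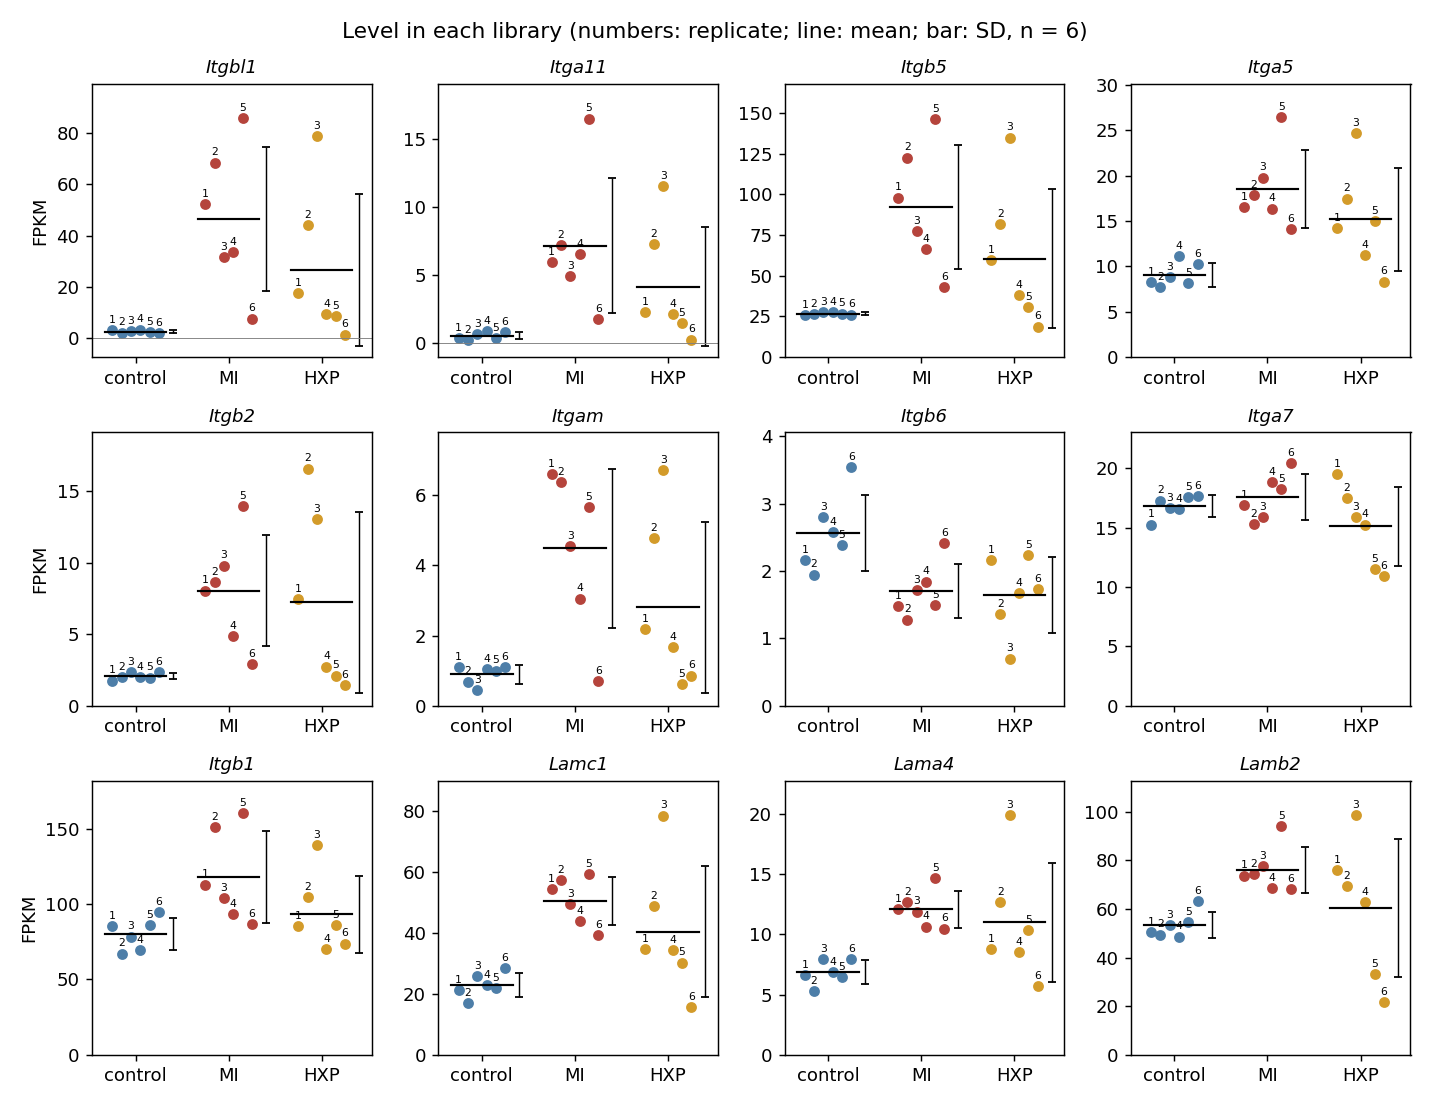
FPKM of 12 integrin and laminin genes in each library (y axis), by group, with the replicate number beside each point, the group mean as a line and the SD as a bar (n = 6). Itgbl1, Itga11, Itgb5, Itga5, Itgb2, Lamc1, Lama4 and Lamb2 have every MI library above every control, and the HXP libraries are spread widely, with HXP 6 the lowest of its group in each of these 8 genes and below every control in Itgbl1, Itgb5, Itgb2, Lamc1 and Lamb2.

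The 250 bases before the RefSeq start (GRCm38.p6) were in the promoter table for 27 of the 42 members. The windows below belong to the 3 members with the highest fold changes whose window holds no exon of the gene. They are shown to set their composition side by side, and shared regulation of these genes was not tested. Capitals mark matches, on either strand, to GGGCGG (SP1), TGANTCA (AP-1), GGAATG (TEAD) and GAGGAA (PU.1).
Itgb5 (chr16:33829415-33829664, plus strand): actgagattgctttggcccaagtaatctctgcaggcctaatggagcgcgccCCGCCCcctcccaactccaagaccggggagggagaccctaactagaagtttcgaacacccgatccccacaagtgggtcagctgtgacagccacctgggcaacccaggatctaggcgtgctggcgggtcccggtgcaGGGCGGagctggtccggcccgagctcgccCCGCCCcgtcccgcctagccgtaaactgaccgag
Itgam (chr7:128062390-128062639, plus strand): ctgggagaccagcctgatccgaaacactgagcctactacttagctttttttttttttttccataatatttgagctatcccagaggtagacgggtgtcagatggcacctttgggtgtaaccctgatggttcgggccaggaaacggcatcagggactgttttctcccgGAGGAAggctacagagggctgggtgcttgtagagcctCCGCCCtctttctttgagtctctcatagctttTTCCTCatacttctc
Itga5 (chr15:103366792-103367041, minus strand): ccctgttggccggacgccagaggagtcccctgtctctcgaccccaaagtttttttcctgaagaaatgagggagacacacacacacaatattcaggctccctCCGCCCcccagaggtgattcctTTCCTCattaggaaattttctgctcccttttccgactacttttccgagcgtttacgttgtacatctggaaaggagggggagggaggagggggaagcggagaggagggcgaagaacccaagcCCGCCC
The Itgb5 window is 65.2% GC and holds 3 matches to GGGCGG and 0 to the other motifs. The Itgam window is 49.6% GC and holds 2 matches to GAGGAA, a core that PU.1 binds in myeloid cells, and 1 to GGGCGG. The Itga5 window is 55.6% GC and holds 2 matches to GGGCGG and 1 to GAGGAA. Over the 27 windows, GGGCGG matched in 9 (33.3%, against 32.7% of the 32851 windows in the table). GAGGAA matched in 12 (44.4%, against 23.3% of all), TGANTCA in 1 (3.70%, against 6.75%) and GGAATG in 2 (7.41%, against 12.6%). These shares take in windows that overlap exons: only 13 of the 27 windows hold no exon of the gene. Each member was counted with 1 window, while some genes have more than 1 among all windows.

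Laminin chains of each class rose in MI. Lamc1 (ENSMUSG00000026478, chr1:153218922-153332786, minus strand) encodes gamma1, the gamma chain of nearly all laminins of the heart. It was at 16.8, 22.4 and 28.3 FPKM in control, 39.2, 51.9 and 59.2 FPKM in MI and 15.6, 34.5 and 78.4 FPKM in HXP. MI and control did not overlap, all HXP libraries but HXP 6 lay above the controls, and Lamc1 rose by 1.12 (SE 0.26, limma adjusted p = 0.0139).

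Of the laminin alpha chains, Lama4 and Lama2 rose and Lama5 did not pass. Lama4 (ENSMUSG00000019846, chr10:38965515-39110188, plus strand), the alpha chain of endothelial and stromal basement membranes, was at 5.29, 6.75 and 7.97 FPKM in control, 10.5, 12.0 and 14.7 FPKM in MI and 5.70, 9.58 and 19.9 FPKM in HXP. MI and control did not overlap, and Lama4 rose by 0.74 (SE 0.19, limma adjusted p = 0.0149). Lama2, the alpha chain around muscle fibres, rose by 0.75 (SE 0.20, limma adjusted p = 0.0152) from 6.48 ± 1.2 to 11.6 ± 2.16 FPKM (SD, n = 6 each). Lama5 (chr2:180176373-180225859, minus strand), the alpha chain of mature endothelial basement membrane, stood at 10.5 ± 2.26 FPKM in control and in MI at 9.60 ± 1.15 FPKM (SD, n = 6 each). Its -0.10 (SE 0.22) did not pass (limma adjusted p = 0.703).

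Lamb2 (ENSMUSG00000052911, chr9:108479736-108490530, plus strand), the main beta chain of adult muscle and vessels, was at 48.6, 51.8 and 63.1 FPKM in control, 68.2, 74.1 and 94.0 FPKM in MI and 21.6, 66.2 and 98.5 FPKM in HXP. Every MI library lay above every control, yet its 0.50 (SE 0.26) did not pass (limma adjusted p = 0.119) in the fit that pools the spread with HXP. Without HXP 5 and HXP 6, which were at 33.2 and 21.6 FPKM, the limma adjusted p was 0.00379. They were the lowest HXP libraries for Lamb2, so leaving them out by itself narrows the pooled spread. Lamb1, the beta chain more abundant in development, rose by 0.65 (SE 0.19, limma adjusted p = 0.0177) from 9.88 ± 1.55 to 16.0 ± 2.01 FPKM (SD, n = 6 each). Lamb3, the beta chain of epithelial laminin, had -0.10 (SE 0.16, limma adjusted p = 0.635).

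Shares within a class do not depend on the scaling of a library, since they set genes of the same library against each other. Lama5 was the largest laminin alpha gene in every control, at 43.4% ± 2.62 of the summed laminin alpha FPKM (SD, n = 6, range 39.6% to 45.4%). In MI it was at 28.5% ± 3.96 (range 25.5% to 36.0%), with no overlap with control. In HXP it was at 29.3% ± 9.12, from 20.6% to 40.5%. The share of Lama4 was 28.6% ± 2.21 in control and 35.7% ± 2.17 in MI, and that of Lama2 26.8% ± 0.972 in control and 34.0% ± 3.28 in MI (SD, n = 6 each), both with no overlap between the groups. Lamb2 held 82.1% ± 1.84 of the laminin beta FPKM in control and 81.2% ± 0.880 in MI (SD, n = 6 each). The alpha chains thus shifted in share, while the share of the dominant beta chain differed by less than 1 SD of the controls.

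Among the integrin beta genes, Itgb5 took 23.8% ± 2.52 in control (SD, n = 6, range 20.3% to 26.8%) and 39.9% ± 4.75 in MI (range 31.4% to 44.4%). The share of Itgb1 was 70.8% ± 2.88 in control and 53.6% ± 5.16 in MI (SD, n = 6 each), with no overlap between the groups for either gene. In HXP, Itgb5 ran from 19.4% to 45.6%. Itgb6 held 2.27% ± 0.366 in control and 0.879% ± 0.50 in MI (SD, n = 6 each). Among the integrin alpha genes the share of Itga7 was 32.4% ± 3.24 in control and 20.2% ± 5.52 in MI, and that of Itga11 0.972% ± 0.435 and 7.28% ± 3.51 (SD, n = 6 each). No test was run on the shares.

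**Figure D3:**
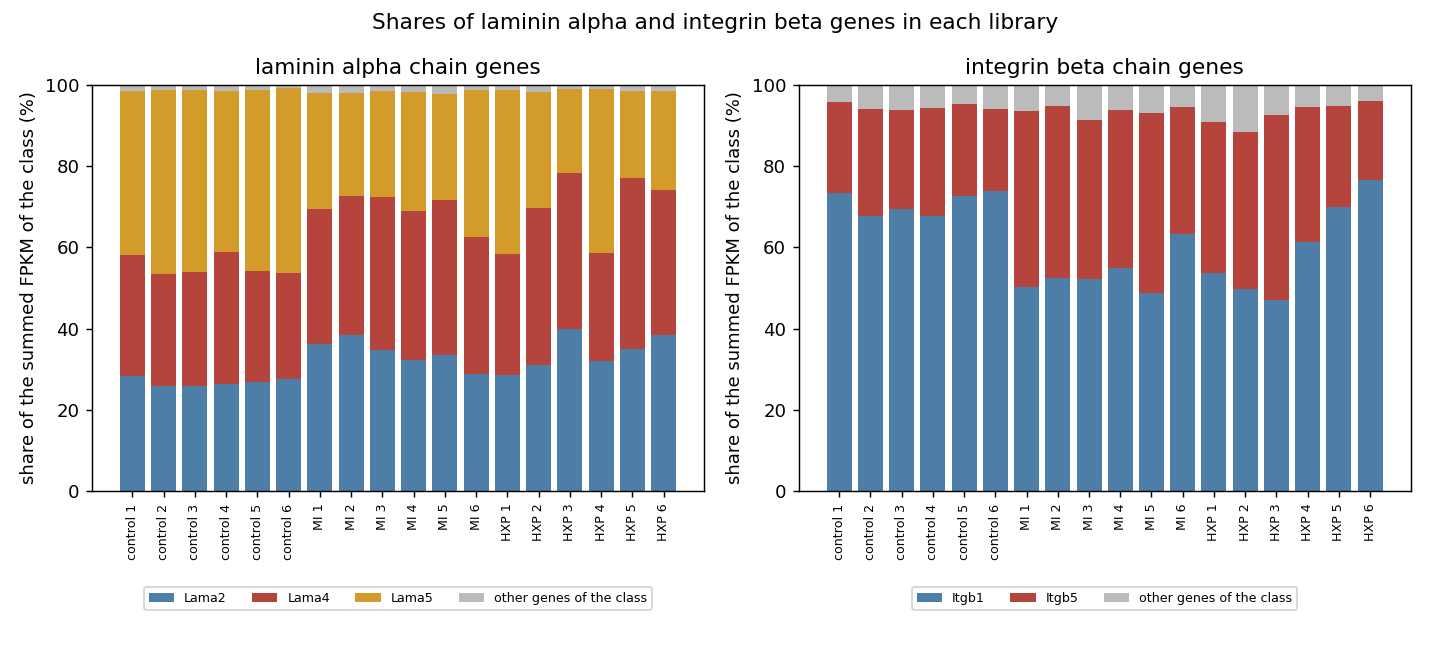
Share of each gene in the summed FPKM of the laminin alpha genes (left) and the integrin beta genes (right), in percent, for each of the 18 libraries. Lama5 makes up 39.6% to 45.4% in control and 25.5% to 36.0% in MI, and Itgb5 20.3% to 26.8% in control and 31.4% to 44.4% in MI.

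Against MI, no integrin or laminin gene rose or fell in HXP hearts. limma called 0 of the 35 members and 0% of all genes, the members' adjusted p ran from 0.361 to 0.953, and 1 member had an unadjusted p below 0.05, as had 13.8% of all genes. In this contrast 33 of 35 members had a negative log2 fold change, with a median of -0.21 against -0.12 over all genes tested. Itgb5 had -0.78 (SE 0.37, limma adjusted p = 0.361) in HXP against MI and Itgbl1 -1.26 (SE 0.66, limma adjusted p = 0.390). For 0 members did the HXP and MI libraries separate, where 0.117% of all genes lay wholly higher and 0.306% wholly lower in HXP.

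Against control, limma also called 0 of 35 members in HXP, where 0.314% of all genes were called. At an unadjusted p below 0.05 there were 15 members, beside 33.1% of all genes. The members' limma adjusted p ran from 0.0893 to 0.969, and their median log2 fold change was 0.38 against 0.16 over all genes tested. The lowest adjusted p was shared by Itgbl1 (log2 fold change 2.14, SE 0.66) and Itga5 (log2 fold change 0.62, SE 0.19). The HXP and MI comparisons share the same control libraries. Under median-ratio scaling Itga5 and Itgbl1 passed as higher and Itga7 and Itgb6 as lower in HXP than in control (3.82% and 5.42% of all genes), and under quantile normalization Itga5 and Itgbl1 as higher and 0 as lower (3.93% and 5.05%). Under scaling to non-mitochondrial reads Itga5 alone passed as higher and 0 as lower (3.80% and 3.68%).

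The HXP libraries fell over a wide range. In HXP 1, 2 and 3, 27, 28 and 29 of the 35 members lay above all controls, beside 59.8%, 64.5% and 68.1% of all genes. In MI 1 to MI 5 there were 25 to 30 members, beside 52% to 67.3% of all genes. In HXP 4 there were 14 members above and 2 below (25.1% and 19% of all genes), and in HXP 5 16 above and 5 below (29.9% and 22.9%). In HXP 6 only 1 member lay above all controls and 18 lay below them, beside 8.71% and 40.8% of all genes in that library. Without HXP 6, 16 members passed as higher and 1 as lower than control (28.1% and 2.78% of all genes). Without HXP 5 and HXP 6, 22 passed as higher and 1 as lower (40.9% and 2.65% of all genes). Of the HXP libraries these had the most members below the controls, so leaving them out by itself favours calls of higher members. The fibroblast markers, of which 8 of 8 rose in MI, summed to 108.6 to 148.8 FPKM in control, 295.6 to 1878 FPKM in MI and 84.8 to 1702 FPKM in HXP, lowest in HXP 6. Their part in the levels of Itga11, Itgbl1 and the other members was not tested.

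**Figure D4:**
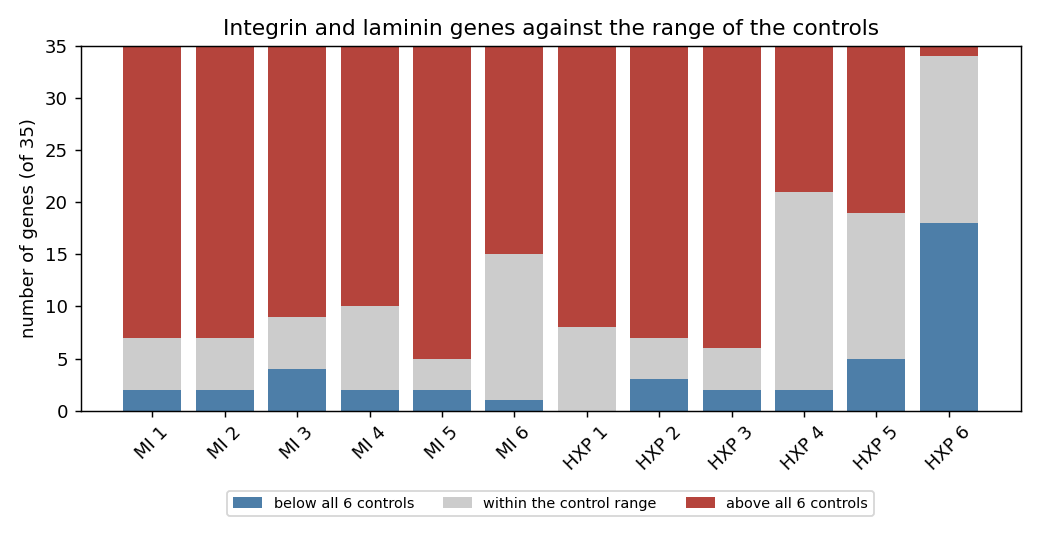
Number of the 35 tested integrin and laminin genes (y axis) that lie above, within or below the range of the 6 controls in each MI and HXP library. The count above runs from 20 to 30 in MI and from 1 (HXP 6) to 29 (HXP 3) in HXP, where 43.5% to 67.3% and 8.71% to 68.1% of all genes lie above, and HXP 6 has 18 below.

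Lama5, Lamb2 and Itga7 were low in HXP 5 and HXP 6. Lama5 was at 5.21 and 3.91 FPKM in HXP 5 and HXP 6, below the lowest control at 8.41 FPKM, and Lamb2 and Itga7 were also below all controls in both. The longest transcripts of Lama5, Lamb2 and Itga7 are 59.9%, 58.8% and 57.8% GC, at the 95.9th, 93.4th and 90th percentile of the genes tested. Over all genes above 54.4% GC the median log2 difference from the control mean was -0.19 in HXP 5 and -0.47 in HXP 6. Over the genes below 45% GC it was 0.10 and 0.003. The part of GC content in the levels of Lama5, Lamb2 and Itga7 was not tested. Other members of high GC content varied in HXP 5. Itgb7 (58%) and Itga3 (57.9%) lay within the control range there and Itga5 (57.3%) above it. Itga2b (58.2%) lay within its wide control range, but its log2 difference from the control mean was -0.49, beside -0.51 for Itga7. Lamb3 (55.6%) lay below all controls, at 1.12 FPKM against a lowest control of 1.30 FPKM. In HXP 6, Itgb7 (0.0987 FPKM), Itga3 (1.23 FPKM) and Lamb3 (1.17 FPKM) lay below all controls, and Itga5 and Itga2b within the control range. Itgb4, at 60% GC, lay above all controls in HXP 5 (0.592 FPKM) and below them in HXP 6 (0.0408 FPKM).

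Itga2b, the alpha chain of the platelet fibrinogen receptor, followed no group. It was at 0.0844, 0.619 and 2.01 FPKM in control, 0.292, 0.402 and 1.38 FPKM in MI and 0.175, 0.459 and 1.95 FPKM in HXP, and its -0.04 (SE 0.26) did not pass (limma adjusted p = 0.895). The 4 highest libraries for Itga2b were control 2, HXP 1, MI 5 and control 6. The same 4 libraries were highest for Ppbp, a chemokine gene of platelets, at 20.2, 14.1, 9.86 and 11.2 FPKM, and for Gp9, a platelet membrane glycoprotein. Other platelet markers had another order: Pf4 was highest in HXP 2 and HXP 3 (33.8 and 31.3 FPKM) and Gp1bb in HXP 3 and MI 1 (5.30 and 2.63 FPKM). Ppbp was chosen after its values were seen. Of 5 platelet markers tested, 0 rose and 0 fell in MI (limma). How much blood each sample held is not given in the sources used here.

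**Figure D5:**
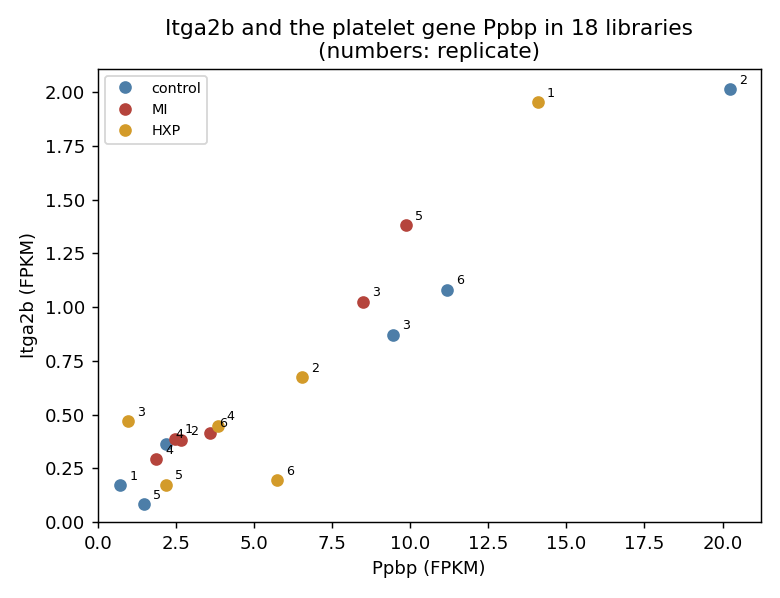
Itga2b (y axis, FPKM) against the platelet gene Ppbp (x axis, FPKM) in the 18 libraries, coloured by group and numbered by replicate. Control 2 and HXP 1 are highest in both genes, and each group has libraries near the origin.

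The partners of the receptors and of the basement membrane were counted over whole lists, beside the 40.1% of all genes that rose in MI. Of 17 matrix ligands of integrins 14 rose and 0 fell (median log2 fold change 2.69), among them Fn1, fibronectin, from 3.66 ± 0.770 to 95.8 ± 68.0 FPKM (SD, n = 6 each), a rise of 4.06 (SE 0.71, limma adjusted p = 0.0127). Of 18 basement membrane partners of the laminins 16 rose and 0 fell (median 0.95), among them Sparc with 2.75 (SE 0.54, limma adjusted p = 0.0136). Of 26 tested adaptors of integrin adhesions 19 rose and 0 fell (median 0.72), among them Actn1, the actin crosslinker alpha-actinin 1, with 1.79 (SE 0.37, limma adjusted p = 0.0139). Of 12 other laminin receptors 6 rose and 0 fell (median 0.36), among them the syndecan Sdc1 with 2.01 (SE 0.46, limma adjusted p = 0.0139). Of 6 tested ligands of leukocyte integrins 3 rose and 0 fell (median 0.40): F11r, Vcam1 and Icam1. In both HXP contrasts limma called 0 genes of these lists. Tnc, Npnt and Spp1 of the matrix ligands, Col4a6 of the basement membrane partners and Parvg and Lpxn of the adaptors rose from control means of 0.124 to 0.432 FPKM. For them passing the filter and rising are not independent. Col1a1, Col1a2 and Postn were counted both as matrix ligands and as fibroblast markers, so these counts overlap.

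The 7 members below the filter were Itga2, Itgad, Itgae, Itgb2l, Lama1, Lama3 and Lamc3. Lama1, the laminin alpha chain of embryonic basement membrane, was listed at 0 in all 6 controls and reached at most 0.0915 FPKM, in MI 2. Itga2, a collagen receptor, was at 0.0657, 0.0913 and 0.179 FPKM in control and 0.217, 0.586 and 0.839 FPKM in MI, with no overlap. A fit with no filter gave Itga2 a difference of 0.47 (SE 0.15, limma adjusted p = 0.0520). In the same fit Lama3, the alpha chain of epithelial laminin, passed with 0.29 (SE 0.07, limma adjusted p = 0.0344) and Lamc3 with 0.22 (SE 0.07, limma adjusted p = 0.0404). Itgad, Itgae and Itgb2l did not pass, at levels of at most 0.400 FPKM in any library.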

How the data were processed

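The authors deposited 1 table per library, with 34150 Ensembl genes in each. The unit of the deposited values was taken to be FPKM from the numbers themselves, since no header names it: 97.9% to 98.3% of the low values checked, times the exon length of their gene, were whole reads within 0.1. The submitters' processing notes name GRCm38 and limma, with no role. The sources used here do not give the aligner, the counting tool or its use of strand, so genes that overlap may share reads.

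IDs were matched to GENCODE M21 (34097 matched, 53 not). Genes whose mean over the 18 libraries reached 0.5 FPKM (13710) were tested on log2(FPKM + 1) with limma 3.58.1 in R 4.3.3 (3 group means, trend, two-sided, Benjamini-Hochberg over these genes). Because 1 is added, fold changes of genes near 1 FPKM are compressed. Tables were handled with pandas 2.3.3 and figures with matplotlib 3.10.9 in Python 3.11.15. The test was checked on simulated data. Promoter sequences are from RefSeq (GRCm38.p6).

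No library was left out. The counts in MI 1 and MI 2 lay closer together than in any other pair (median chi-square over genes 2.37, lowest of the other pairs 5.40). They lay above sampling noise (0.455), and both were kept. Libraries made apart from the same heart could also lie above sampling noise, so this does not show that MI 1 and MI 2 came from separate mice. Replicate numbers did not pair the libraries (correlation of deviations -0.31 to 0.63).

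The members and gene lists were chosen with earlier results of these data known. Values by library are given for the called members with the 8 highest and 4 lowest log2 fold changes in MI against control and for the highest mean level of each chain class, and for at most 2 genes of each list of partners. Lama5, Lama2, Lamb1, Itga2b, the other members given with single values, and the motifs were singled out after their values were seen. Of the tested members 1 is included in the counts and medians but is not reported here by itself.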

Additional observations from a re-analysis of the deposited data

Results flagged for a closer look

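In 6 of 102 groups of 6 libraries tested (34 genes in 3 groups), 1 library stood apart from the other 5, its gap to the nearest being more than 0.625 of the group's range. Chance gives about 1 in 20 such groups. Lamb1 was at 19.95 FPKM in MI 5, the library with lung epithelial genes, and the next MI library was at 15.8 FPKM. Itgb4 was at 0.479 FPKM in MI 6 (next 1.00 FPKM). Itga3 was at 2.36 FPKM (next 1.85 FPKM) and Itga4 at 0.416 FPKM (next 0.290 FPKM) in control 6. Itgav was at 1.86 FPKM (next 2.34 FPKM) and Itga6 at 3.0 FPKM (next 5.53 FPKM) in control 2.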

How the results depend on the processing

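Of 1171 refits of single members, 969 kept their direction and side of the threshold, 166 lost the call, 17 gained it and 19 turned. The count of members called in MI against control (24) was 10 at a mean of at least 5 FPKM (16 tested), 2 in the largest block of library numbers, 0 without MI 4 and MI 5, and 14 to 26 without single libraries. With median-ratio scaling and MI 5 left out together, chosen after seeing the data, it was 11. In HXP against control (0) it was 2 under quantile normalization, 4 under median-ratio scaling, 1 under scaling to non-mitochondrial reads, 23 without HXP 5 and HXP 6, 3 with median-ratio scaling and MI 5 left out, and 0 to 17 without single libraries, highest without HXP 6. HXP against MI gave 0 members under every setting run.

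Directions that turned in MI against control, none of them called with the settings of the report, were Itga7 (-0.25 quantile, -0.30 median-ratio, -0.17 non-mitochondrial, -0.27 median-ratio without MI 5), Itgb1bp1 (-0.26, -0.23, -0.12 and -0.24), Itgb3bp (-0.21 quantile, -0.048 median-ratio, -0.053 median-ratio without MI 5), Itga6 (-0.038 quantile, -0.010 median-ratio), Itga1 (-0.00020 quantile) and Itga2b (0.081 at a pseudocount of 0.1, 0.015 with the block of library numbers as a covariate, 0.13 and 0.02 without control 2 and control 6, 0.02 without MI 4). The causes were not tested. With the replicate number as a block, 24 members were called in MI against control and 0 in either HXP contrast, and since the numbers do not pair the libraries this says nothing of shared mice. Depth limits the lowest members: Itgad, Itgae, Itgb2l, Lama1 and Lamc3 had 0 reads in at least 1 library, and of the tested members Itgax, Itgb7, Itgb4 and Itga10 had 14, 21, 22 and 28 reads in their lowest library.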
